A study of Mus musculus with 24 samples.

Results

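BAP1-deficient LSK cells were compared with BAP1-deficient myeloid progenitors, to describe which differences between the stem-enriched and the committed compartment of the bone marrow exist without BAP1. The comparison used 12 of the 24 arrays of the series: the arrays of the 4 mice labelled knockout (KO), 3 arrays a mouse. Mice 2 and 4 gave HSC-enriched cells (lineage-negative, Sca1-positive, Kit-positive, here LSK cells), and mice 7 and 8 gave myeloid progenitors (Kit-positive without lineage antigens or Sca1). All mice of both genotypes were C57BL/6; per the labels' protocols tamoxifen was injected for a systemic deletion of BAP1, so that BAP1 was deleted outside the sorted cells too. The same populations of the 4 wild-type (WT) mice, LSK cells of mice 1 and 3 and myeloid progenitors of mice 5 and 6, served for reference. The labels used here give no age, sex or time after tamoxifen. No mouse gave both populations, and the array codes run through all LSK mice before all progenitor mice, so that array order and population cannot be told apart.

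BAP1 is a nuclear deubiquitinase that removes ubiquitin from histone H2A, the mark set by Polycomb repressive complexes. LSK cells hold the hematopoietic stem cells and the multipotent progenitors that follow them. Kit-positive cells that have lost Sca1 hold the progenitors of granulocytes, monocytes, erythrocytes and megakaryocytes, which divide more and have begun to use the genes of their lineages.

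Values are log2 expression levels as the authors deposited them, on a scale on which 1 unit is 2-fold. The mouse is the replicate, with 2 mice a group, and arrays of a mouse were averaged. Differences are LSK cells minus myeloid progenitors with the standard error (SE) and a limma p adjusted by Benjamini-Hochberg, and a gene is called past 0.05. In bulk RNA fewer cells of a type and less RNA per cell cannot be told apart. The 25th percentile of an array lay at 6.15 to 6.18, and levels under 6.5 are named as dim.

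Of the sort's markers Kit, the receptor that both gates require, was at 12.78 and 12.79 in KO LSK mice and 13.07 and 12.76 in KO progenitor mice. The groups overlapped, and the difference of -0.13 ± 0.21 (SE) was not called. Of the 10 sort markers, which include antigens of the mature lineages, 6 were measured and 0 were called; Ly6a, the gene of Sca1, is not among them, so the gate itself was not checked here. The only Bap1 probe was at 11.96 and 11.84 in KO LSK mice and 11.67 and 11.85 in KO progenitor mice, against 11.45 to 11.59 in WT mice. It was not lower in the mice labelled KO. Whether this probe falls inside the deleted stretch is unknown here, so it does not check the labels. The Y-linked gene Kdm5d was at 5.93 to 6.03 in the 4 KO mice, as in WT mice 3 and 6, while WT mice 1 and 5 were at 7.88 and 8.15.

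The 4 KO mice stood apart by population on the first principal component of the 8 mice, which held 53.9% of the variance. Mice 2 and 4 scored 41.0 and 25.6, and mice 7 and 8 scored -40.8 and -34.9. Mouse 4 thus lay nearer to the progenitors than mouse 2. Arrays of the same KO LSK mouse correlated across probes with a median r of 0.9935 and arrays of its 2 different mice with 0.9829, against 0.9936 and 0.9894 in KO progenitors. Mice 2 and 4 differed by more than 1 log2 unit in 290 genes and mice 7 and 8 in 86.

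**Figure D1:**
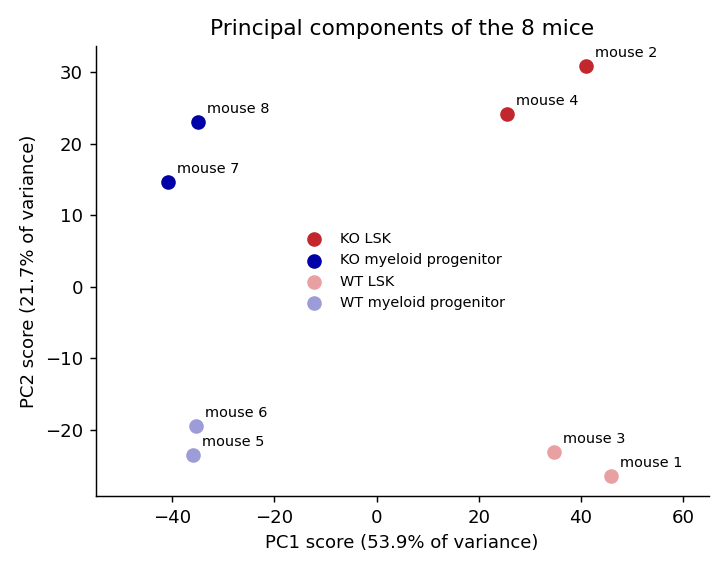
Scores of the 8 mice on the first and the second principal component of the mouse means, with the share of variance on each axis and 1 point a mouse. KO LSK mice 2 and 4 lie right at 41.0 and 25.6 and KO progenitor mice 7 and 8 left at -40.8 and -34.9, and KO mice lie above WT mice.

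Without BAP1, 2262 of 17741 genes (12.8%) differed between the populations past the threshold. Of these, 1288 (7.26% of all genes) were higher in LSK cells and 974 (5.49%) were higher in progenitors, and 665 (3.75%) and 435 (2.45%) of them differed by at least 2-fold. At an unadjusted p under 0.05 there were 4649 (26.2%). The 2 LSK mice lay both above or both below the 2 progenitor mice in 9856 genes, 55.6% of all. With BAP1, 2403 genes (13.5%) were called, 1434 (8.08%) higher in LSK cells and 969 (5.46%) higher in progenitors. The calls of both genotypes shared 1362 genes, 840 higher in LSK cells and 522 higher in progenitors, which is 60.2% of the KO calls and 56.7% of the WT calls. In 0 genes were the calls opposite. The WT mice are other animals than the KO mice, but all 8 share 1 estimate of the spread.

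Of the 900 genes called in KO alone, 851 had a WT difference of the same sign and 49 of the opposite sign, and in 4 the KO difference itself differed from the WT one. The WT count was 1077 without mouse 1 and 1432 without mouse 5. A call in one genotype alone is therefore no sign of a different response, and that difference is tested by the interaction contrast described further on. Among the 2262 KO calls, mouse 4 lay on the progenitors' side of mouse 2 in 1674 (74%). The count of calls fell to 1064 without mouse 2, to 936 without mouse 7 and to 1010 without mouse 8, and was 2687 without mouse 4.

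**Figure D2:**
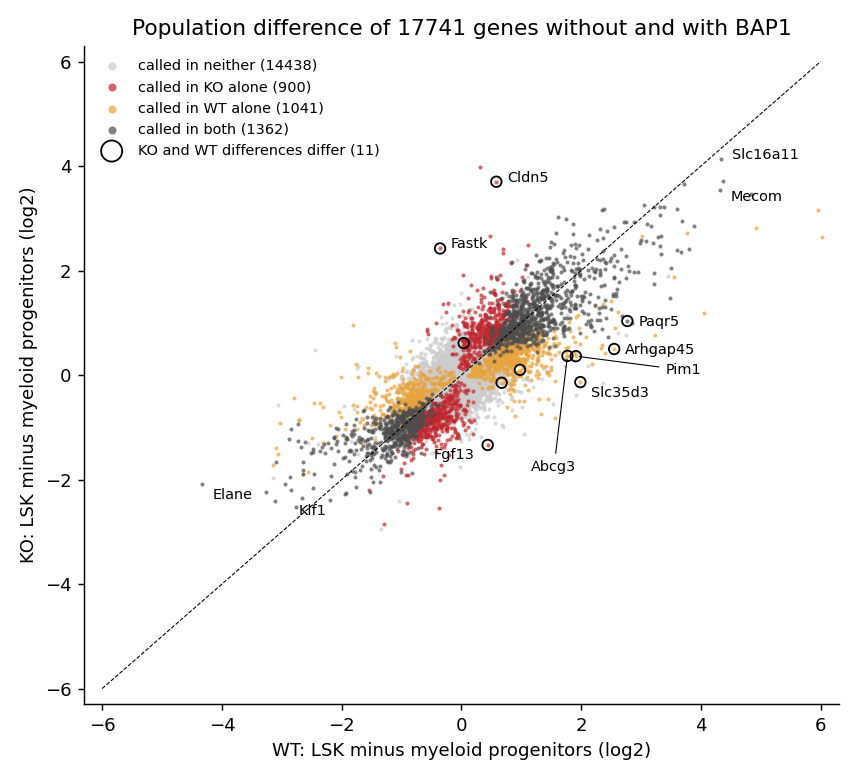
Each point is a gene, with its log2 difference between LSK cells and myeloid progenitors in WT mice (x axis) and in KO mice (y axis); colours give the genotype in which it was called, rings the 11 genes whose KO and WT differences differed past the threshold, and the dashed line equal differences. The 1362 genes called in both genotypes lie in the upper right and lower left, and Cldn5 and Fastk lie high in KO alone.

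The KO counts of gene lists below stand against shares of 7.26% of all genes higher in LSK cells and 5.49% higher in progenitors. Of 34 measured genes of stem cell identity 18 were higher in LSK cells and 3 in progenitors, with a median difference of 1.19, against -0.01 for all genes. In WT mice the counts were 23 and 0 and the median 1.30. Mecom, a transcription factor that stem cells need to renew themselves, was at 13.33 and 13.26 in LSK mice and 9.33 and 10.16 in progenitor mice, a difference of 3.55 ± 0.26 (SE, adjusted p = 0.000131) or 11.7-fold. A second, dimmer Mecom probe differed by -0.08 (adjusted p = 0.843), so the probes disagree. Robo4, a guidance receptor of stem cells and endothelium, was at 12.26 and 11.71 against 7.95 and 8.71 (3.66 ± 0.33, adjusted p = 0.000226). Both LSK mice lay more than 2 units above both progenitor mice in both genes. Both genes were among the 12 highest, a rule that takes only genes whose mice do not overlap.

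Hlf, a transcription factor of the most primitive cells, was at 13.87 and 13.79 in LSK mice and 10.76 and 11.18 in progenitor mice (2.86 ± 0.23, adjusted p = 0.00014). Ndn, an imprinted growth suppressor, differed by 2.94 ± 0.30 (adjusted p = 0.000353), and Ltb, the gene of lymphotoxin beta, by 3.18 ± 0.29 (adjusted p = 0.000227). The groups lay apart in each, and all 5 genes kept their call whichever mouse was left out. The stem cell markers that follow were chosen after their values were seen. Fgd5 was at 10.28 and 10.04 against 7.59 and 7.90, and Procr, the endothelial protein C receptor, at 9.54 and 8.79 against 6.22 and 6.79. The Procr difference of 2.65 ± 0.51 (adjusted p = 0.0206) lost its call without mouse 2, 7 or 8. Cd34 differed by 1.76 ± 0.18, Esam by 2.09 ± 0.29 and Meis1, a partner of Hox proteins, by 1.19 ± 0.18, all called. Emcn, a sialomucin of the stem cell surface, was at 7.49 and 7.08 in LSK mice and 6.16 in both progenitor mice, against 10.41 and 10.18 in WT LSK mice. It was dim in the progenitors, at the 25th percentile of the arrays, which limits the difference. That difference of 1.12 ± 0.26 (adjusted p = 0.0167) lost its call without mouse 2, 7 or 8.

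The 3 members higher in progenitors were Cavin2, Cd48 and Slamf1. Cavin2, a caveola protein also used by platelets, was at 7.03 and 7.26 in LSK mice and 9.08 and 9.25 in progenitor mice (-2.02 ± 0.22, adjusted p = 0.000385). In WT mice its difference was -0.36, but the 2 differences were not shown to differ (adjusted p = 0.108). Cd48, which marks cells that have left the stem cell state, differed by -1.24 ± 0.30 (adjusted p = 0.0234), a call lost without mouse 2, 7 or 8. Slamf1 was dim, at 5.78 to 6.29 in the 4 mice. Tek, the angiopoietin receptor, was at 6.96 and 6.67 in LSK mice against 7.02 and 6.79, and its difference of -0.09 was not called, while WT mice had a called one of 0.88. The difference between genotypes was not called either (adjusted p = 0.371). Without mouse 2 the list's counts were 14 and 1, and without mouse 7 they were 13 and 2.

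**Figure D3:**
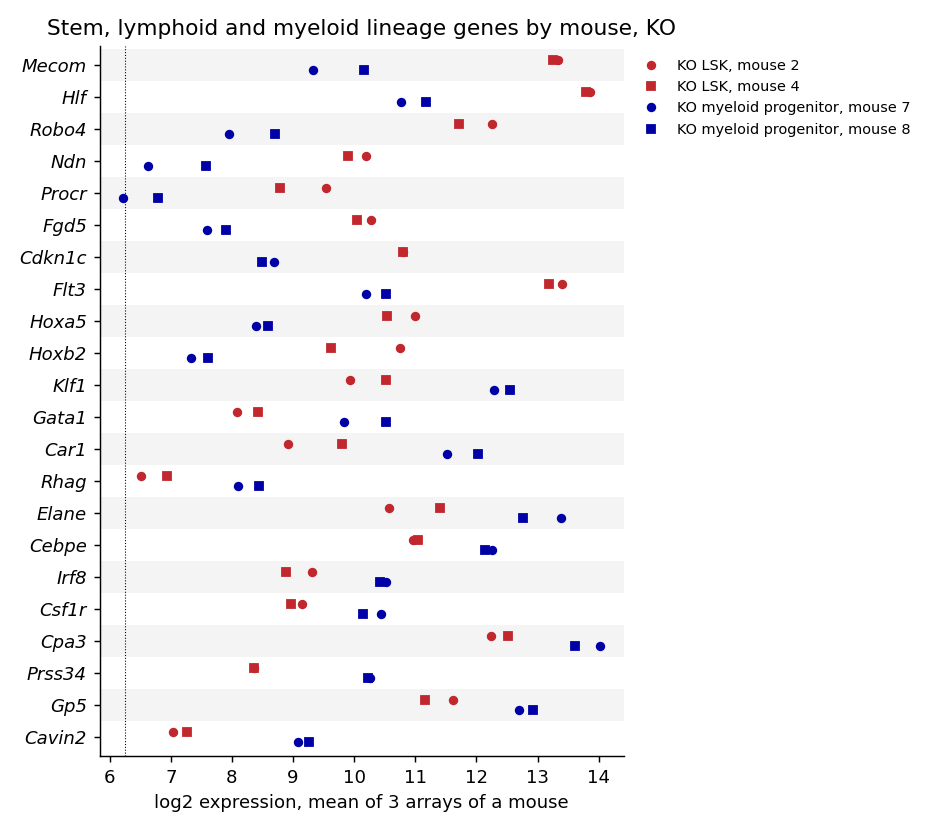
Log2 expression of 22 stem, lymphoid and myeloid lineage genes in the 4 KO mice, 1 point a mouse (mean of 3 arrays), LSK mice in red and progenitor mice in blue; the dotted line is the lower quartile of all mouse means. LSK mice lie right of progenitor mice from Mecom to Hoxb2 and left of them from Klf1 to Cavin2.

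The genes with the largest differences toward KO LSK cells were in part no stem cell markers. Slc16a11, a monocarboxylate transporter, was at 14.33 and 14.14 in LSK mice and 9.85 and 10.35 in progenitor mice, a difference of 4.13 ± 0.34 (adjusted p = 0.000195) or 17.6-fold. WT mice had a difference of 4.33. Slc15a2, a peptide transporter, was at 11.50 and 11.48 against 6.82 and 8.19 (3.98 ± 0.68, adjusted p = 0.0179). Its progenitor mice differed by more than 1 unit, its WT difference was 0.31, and the call was lost without mouse 2, 4 or 7. The difference between genotypes was not called (adjusted p = 0.517). The chemokine gene Ccl4 was at 11.85 and 11.44 against 7.42 and 8.44 (3.71 ± 0.62, adjusted p = 0.0137), also lost without mouse 2, 4 or 7. Stxbp4, Hdgfl3, Gabbr1 (a subunit of the GABA-B receptor), Gm5111 and Rgs1 (a brake on G protein signalling) differed by 3.18 to 3.26, all called whichever mouse was left out. Their WT differences were 2.39 to 3.39. A second Gabbr1 probe differed by 0.37 and was not called.

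Hox genes, which set position in the embryo and renewal in blood stem cells, were higher in KO LSK cells in 8 of 38 measured members, and 1, the dim Hoxd8, was lower. In WT mice the counts were 9 and 0. Hoxb2 was at 10.76 and 9.62 in LSK mice and 7.33 and 7.61 in progenitor mice (2.72 ± 0.37, adjusted p = 0.00229). Hoxa5 was at 10.99 and 10.54 against 8.39 and 8.58 (2.28 ± 0.25, adjusted p = 0.000424). Hoxa10, Hoxb3 and Hoxa9 differed by 1.85 ± 0.22, 1.85 ± 0.25 and 1.71 ± 0.30, all called whichever mouse was left out. Hoxb3 was dim in the progenitor mice, at 6.24 and 6.43, which limits its difference. The called genes higher in LSK cells were of the A and B clusters. In both KO populations 25 of the 38 members lay below the median probe mean, a level above the limit for dim. A second Hoxb3 probe differed by -0.07. The list median was 0.02.

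Lymphoid priming, the early use of lymphocyte genes by multipotent cells, was seen in 4 of 21 measured members in KO mice, all higher in LSK cells, with a median of 0.18; in WT mice it was 10 and 0.64. Flt3, the receptor of lymphoid-primed progenitors, was at 13.40 and 13.19 in LSK mice and 10.20 and 10.52 in progenitor mice (2.93 ± 0.30, adjusted p = 0.000348). Lsp1 and Mef2c differed by 1.78 ± 0.27 and 1.33 ± 0.20. Dntt, the polymerase that adds bases at antigen receptor joints, was at 8.10 and 8.46 against 6.81 and 6.66 (1.54 ± 0.37, adjusted p = 0.0273). That call was lost without mouse 1, 2, 3, 4, 7 or 8, while a second probe was called at 1.06 (adjusted p = 0.00582). Rag1, the recombinase subunit, was dim in all 4 KO mice at 5.89 to 6.01, against 8.07 to 9.53 in the WT mice. Il7r was at 7.35 and 6.93 in KO LSK mice and 6.45 and 6.33 in KO progenitor mice and was not called (adjusted p = 0.0708). Satb1, a chromatin organiser of lymphoid cells, had a difference of -0.02 in KO and a called one of 0.95 in WT mice; the 2 were not shown to differ (adjusted p = 0.548). In 0 members did the KO difference differ from the WT one.

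B cell genes gave 1 call in KO mice among 15 measured members, higher in LSK cells, near the share of 7.26% over all genes. Without mouse 4, 3 were higher in LSK cells, and without mouse 5 or 6, 1 was higher in progenitors. The mean level of the list was 7.45, 7.18, 7.14 and 7.10 in mice 2, 4, 7 and 8, against 8.14 to 8.76 in the WT mice. Ebf1, the factor that starts the B cell program, was dim at 6.20 to 6.32. Igll1 and Vpreb1, the surrogate light chain genes, were at 7.49 to 8.66 and 8.50 to 9.62, with differences of -0.95 ± 0.31 and -0.45 ± 0.37 that were not called. The called gene was Fcer2a, a low-affinity IgE receptor, at 9.34 and 8.66 in LSK mice and 6.59 and 6.74 in progenitor mice (2.34 ± 0.23, adjusted p = 0.000238). Its second probe differed by 0.12 (adjusted p = 0.606). Of 19 T and NK cell genes 2 were higher in each population, against shares of 7.26% and 5.49% over all genes. Gata3, a factor of T cells and of stem cells, was at 10.25 and 9.14 against 6.82 and 7.08 (2.75 ± 0.33, adjusted p = 0.000782), and Ccl5, dim in the progenitors, was the other gene higher in LSK cells. Gzmb and Nkg7, granule genes, were higher in progenitors by 0.94 and 0.84, each lost without mouse 4, 7 or 8 and Nkg7 also without mouse 2. The mean level of the T and NK list was 7.33 to 7.71 in the 4 KO mice.

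Of 37 measured erythroid genes 12 were higher in KO progenitors and 2 in KO LSK cells, with a median of -0.83, and 3 were higher in progenitors without mouse 2 or 8; in WT mice it was 14 and 1 with -1.02. Klf1, the master factor of erythroid genes, was at 9.93 and 10.52 in LSK mice and 12.29 and 12.55 in progenitor mice, a difference of -2.20 ± 0.42 (adjusted p = 0.0129). Gata1, the factor of erythroid and megakaryocytic cells, was at 8.09 and 8.42 against 9.84 and 10.52 (-1.93 ± 0.38, adjusted p = 0.011). Car1, a carbonic anhydrase, was at 8.91 and 9.81 against 11.52 and 12.03 (-2.42 ± 0.55, adjusted p = 0.0338). In all 3 genes mouse 4 lay nearer the progenitors than mouse 2. Klf1 and Car1 were among the 12 lowest, a rule that takes only genes whose mice do not overlap. Both lost their call without mouse 2, 7 or 8, and Gata1 lost it without mouse 2 or 8. Rhag and Icam4, red cell membrane proteins chosen after their values were seen, differed by -1.55 ± 0.18 and -1.49 ± 0.20 and kept their call whichever mouse was left out.

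The promoters of Klf1, Rhag and Icam4 are shown because these genes moved together and each window holds GATAAG, the motif of GATA factors. Given are the 250 bases before the start, from RefSeq (GRCm38.p6), each gene on the plus strand, with the match in capitals on either strand (CTTATC is the motif read from the other strand). The windows are chr8:84901732-84901981 for Klf1, chr17:40810899-40811148 for Rhag and chr9:21029182-21029431 for Icam4.
Klf1: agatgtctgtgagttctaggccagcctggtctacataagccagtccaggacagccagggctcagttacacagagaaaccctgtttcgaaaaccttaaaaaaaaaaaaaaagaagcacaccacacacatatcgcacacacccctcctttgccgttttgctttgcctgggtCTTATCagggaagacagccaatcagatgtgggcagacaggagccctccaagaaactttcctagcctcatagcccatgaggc
Rhag: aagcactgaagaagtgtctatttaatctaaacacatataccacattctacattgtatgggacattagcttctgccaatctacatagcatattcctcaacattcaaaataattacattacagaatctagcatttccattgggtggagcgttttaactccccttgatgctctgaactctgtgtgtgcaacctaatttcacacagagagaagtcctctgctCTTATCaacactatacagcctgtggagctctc
Icam4: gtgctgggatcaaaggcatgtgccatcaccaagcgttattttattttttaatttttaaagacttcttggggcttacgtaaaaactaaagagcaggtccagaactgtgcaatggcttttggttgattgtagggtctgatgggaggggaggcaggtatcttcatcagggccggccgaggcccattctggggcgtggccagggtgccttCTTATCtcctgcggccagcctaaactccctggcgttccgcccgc
These genes were picked for their match, and the motif was not more common among all genes higher in progenitors. Over 300 bases, 250 before to 50 after the start, GATAAG on both strands was in 5.21% of the 922 promoters of those genes. It was in 5.56% of the 1385 promoters of genes higher in LSK cells and in 6.15% of the 17303 promoters of all genes matched. CCACACCC, a KLF motif, was in 3.15%, 4.48% and 3.69% in that order, and CCNCNCCC, which contains it as a case, in 63.4%, 70.8% and 61.8%. A match is a description of the letters, not a site.

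The 2 erythroid genes higher in LSK cells belong to late red cell development. Slc4a1, the anion exchanger of the red cell membrane, was at 10.89 and 11.46 in LSK mice and 8.45 and 9.78 in progenitor mice (2.06 ± 0.46, adjusted p = 0.0248). Alas2, the first enzyme of erythroid heme synthesis, was at 12.93 and 13.18 against 10.53 and 11.81 (1.89 ± 0.38, adjusted p = 0.0165). Both thus ran against Klf1 and Gata1. Slc4a1 lost its call without mouse 2, 4 or 7 and Alas2 without mouse 2 or 4. In WT mice their differences were 1.70 and 1.01, the first of them called. The part of mature red cells in these levels was not tested.

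Heme synthesis and iron genes were higher in KO progenitors in 6 of 23 measured members, with Alas2 the 1 member higher in LSK cells and a median of -0.71. Tfrc, the transferrin receptor, was at 10.21 and 11.65 in LSK mice and 12.68 and 12.77 in progenitor mice (-1.80 ± 0.44, adjusted p = 0.0345). The 2 LSK mice differed by more than 1 unit, and the call was lost without mouse 2, 5, 6, 7 or 8. Slc11a2, an iron importer, differed by -1.52 ± 0.30, lost without mouse 2 or 8, and Slc40a1, the iron exporter ferroportin, by -1.25 ± 0.31, lost without mouse 2, 5, 6, 7 or 8. The counts of erythroid and heme genes higher in progenitors fell without mouse 2, 7 or 8. So did the count over all genes, which did not fall without mouse 4, and the cause was not tested. The erythroid and heme medians were -0.57 and -0.46 without mouse 2, and -0.60 and -0.46 without mouse 8. Without mouse 7 these medians were -0.93 and -0.81, and without mouse 4 they were -1 and -0.88.

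Megakaryocyte and platelet genes were higher in KO progenitors in 6 of 31 measured members and higher in LSK cells in 0, with a median of -0.24; in WT mice 4 were higher in LSK cells and 2 in progenitors. Gp5, a subunit of the platelet receptor for von Willebrand factor, was at 11.62 and 11.15 in LSK mice and 12.70 and 12.92 in progenitor mice (-1.42 ± 0.23, adjusted p = 0.00342). Gp1bb, another subunit, was at 8.26 and 7.86 against 9.28 and 9.49 (-1.33 ± 0.26, adjusted p = 0.00843), lost without mouse 8. Treml1, a receptor of platelet granules, was at 7.14 and 7.68 against 9.10 and 8.80 (-1.54 ± 0.25, adjusted p = 0.00313). The KO progenitor mice were above the LSK mice in each. WT differences were -1.07, -0.27 and -0.21, and those of Gp1bb and Treml1 were not called, but in 0 members did the genotypes differ past the threshold. Pf4, Vwf and Itga2b were not called, and Itga2b was dim in all 4 mice at 5.93 to 6.19.

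Neutrophil granule and granulocyte genes were higher in KO progenitors in 8 of 32 measured members and higher in LSK cells in 2, with a median of -0.43; in WT mice the counts were 13 and 6. Elane, neutrophil elastase, was at 10.58 and 11.40 in LSK mice and 13.39 and 12.76 in progenitor mice (-2.09 ± 0.39, adjusted p = 0.0101), 4.25-fold. In WT mice its difference was -4.33, from 8.63 and 9.54 to 13.63 and 13.20. The WT LSK mice were thus below both KO LSK mice, but the 2 differences were not shown to differ (2.24, adjusted p = 0.321). Cst7 differed by -1.49 ± 0.26 (adjusted p = 0.00481) and Cebpe, a factor of granule maturation, by -1.19 ± 0.21 (adjusted p = 0.00472), both called whichever mouse was left out. Trem3 and Fcgr3 differed by -1.37 ± 0.29 and -1.27 ± 0.28 and, like Elane, lost their call without mouse 2 or 7. Cebpa, the factor that opens the granulocyte and monocyte path, differed by -1.08 ± 0.29 (adjusted p = 0.0334), lost without mouse 2, 7 or 8.

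The promoter of Elane is shown because it is the granule gene with the largest KO difference and holds GAGGAAGT, the motif of PU.1, in capitals. It lies at chr10:79886062-79886311, plus strand (RefSeq, GRCm38.p6).
Elane: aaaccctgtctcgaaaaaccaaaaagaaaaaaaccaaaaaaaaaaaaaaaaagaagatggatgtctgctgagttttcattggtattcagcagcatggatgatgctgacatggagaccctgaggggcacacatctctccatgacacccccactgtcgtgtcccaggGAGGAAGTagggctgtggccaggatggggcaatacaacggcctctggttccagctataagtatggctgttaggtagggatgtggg
Over the 300 bases, GAGGAAGT on both strands was in 2.6% of promoters of genes higher in KO progenitors, 3.61% of those higher in LSK cells and 2.8% of all. TTGCNNAA, a C/EBP motif, was in 8.79%, 6.28% and 9.41%. The promoters of genes higher in progenitors thus held neither motif more often than all promoters.

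Not all granule genes followed Elane. Mpo, myeloperoxidase, was at 15.09 and 15.62 in LSK mice and 15.64 and 15.76 in progenitor mice, near the top of the scale, and was not called. Prtn3, proteinase 3, was at 14.64 and 15.04 against 15.02 and 14.81, overlapping. Ltf and Camp, proteins of the later granules, were the 2 members higher in LSK cells, by 1.08 ± 0.21 (adjusted p = 0.00753) and 0.59 ± 0.15 (adjusted p = 0.028). Ltf lost its call without mouse 8 and Camp without mouse 2, 4, 7 or 8. WT mice had called differences of 1.76 and 0.64 in the same direction. Without mouse 2 or mouse 7 the count higher in progenitors fell to 2, and without mouse 8 it was 7.

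Monocyte, macrophage and dendritic cell genes were higher in KO progenitors in 7 of 32 measured members and higher in LSK cells in 2. The KO list median was -0.20, and went from -0.35 without mouse 8 to 0.00 without mouse 4. In WT mice 9 were higher in progenitors and 5 in LSK cells, with a median of -0.11. Irf8, the factor of monocyte and dendritic cell fate, was at 9.31 and 8.89 in LSK mice and 10.52 and 10.42 in progenitor mice (-1.37 ± 0.24, adjusted p = 0.00481). Csf1r, the receptor of the macrophage growth factor, was at 9.15 and 8.97 against 10.44 and 10.15 (-1.24 ± 0.25, adjusted p = 0.00912), lost without mouse 7. Zeb2 differed by -1.51 ± 0.21 and Ccr2, a chemokine receptor, by -1.45 ± 0.40, the latter lost without mouse 1, 2, 3, 4 or 7. The 2 genes higher in LSK cells were Tcf4, a factor of plasmacytoid dendritic cells, by 2.11 ± 0.23, and Ctss, cathepsin S, by 1.43 ± 0.23. H2-Aa, a class II antigen presentation gene, varied by more than 1 unit between the LSK mice (13.07 and 11.32) and was not called. The counts higher in progenitors were 4, 2 and 5 without mouse 2, 7 and 8.

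Basophil and mast cell genes were higher in KO progenitors in 6 of 20 measured members and in LSK cells in 0. Of the 20, 9 lay below the median probe mean in both KO populations. The list median of -0.06 was near the -0.01 of all genes. In WT mice 8 were higher in progenitors and 1 in LSK cells, with a median of -0.35. Prss34, a basophil protease, was at 8.36 and 8.37 in LSK mice and 10.25 and 10.23 in progenitor mice (-1.88 ± 0.19, adjusted p = 0.000329). Cpa3, carboxypeptidase A3 of mast cells, was at 12.24 and 12.52 against 14.02 and 13.61 (-1.44 ± 0.22, adjusted p = 0.00262). Mcpt8, another basophil protease, was at 13.05 and 13.26 against 13.77 and 13.87 (-0.67 ± 0.18, adjusted p = 0.0337), lost without mouse 1, 2, 3, 7 or 8. Fcer1a, the alpha chain of the IgE receptor, was dim in LSK mice at 6.21 and 6.03 and at 7.93 and 7.25 in progenitor mice. Eosinophil granules were represented by Prg3, whose difference of -2.86 ± 0.55 (adjusted p = 0.0206), 7.24-fold, came from 9.66 and 9.13 against 12.80 and 11.70. It lost its call without mouse 2, 4 or 7, and the WT difference of -1.29 was not called. The genotypes were not shown to differ in Prg3 (adjusted p = 0.868). The basophil and mast cell count was 3 without mouse 7.

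Other genes with the largest differences toward KO progenitors were on none of these lineage lists. Parm1 was at 8.29 and 8.86 in LSK mice and 11.02 and 11.21 in progenitor mice (-2.54 ± 0.26, adjusted p = 0.000321), and a second probe differed by -2.39. In WT mice it differed by -0.38, and the difference between genotypes of -2.16 did not pass (adjusted p = 0.0889). Cth, which makes cysteine, was at 7.07 and 7.93 against 9.72 and 10.16 (-2.44 ± 0.27, adjusted p = 0.000481). Csrp3, Tmem178, Mme (the membrane protease neprilysin) and Tex30 differed by -2.24 to -2.53, all called whichever mouse was left out and with WT differences of -1.52 to -2.77. Sgms2, which makes sphingomyelin, Nxpe2 and Anxa3 differed by -2.36, -2.27 and -2.24, and lost their call without mouse 1, 2, 3, 7 or 8, without mouse 2, 7 or 8, and without mouse 7.

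Among cytokine receptors 7 of 46 measured members were higher in KO LSK cells and 3 in progenitors. The shares over all genes were 7.26% and 5.49%, so the count higher in progenitors was near that of all genes. Il10ra was at 10.63 and 9.32 in LSK mice and 7.05 and 7.57 in progenitor mice (2.67 ± 0.38, adjusted p = 0.00353), against a WT difference of 0.47; the genotypes were not shown to differ (adjusted p = 0.33). Il18r1 differed by 1.53 ± 0.17 (adjusted p = 0.00047) and its second probe by 2.34. Ghr, the growth hormone receptor, differed by 1.26 ± 0.26, lost without mouse 2 or 7. Other Ghr probes differed by 0.02 and 0.45 and were not called, and the Ghr call was lost with all probes averaged. Csf1r, Il5ra and Ifngr1 were the members higher in progenitors. Without mouse 7 the counts were 4 and 0. Of 51 lineage transcription factors 7 were higher in LSK cells (Mecom, Hlf, Gata3, Sox4, Mef2c, Meis1 and Nfia) and 5 in progenitors (Klf1, Gata1, Irf8, Cebpe and Cebpa). In WT mice it was 15 and 5. Without mouse 2, 7 and 8, 2, 3 and 2 factors were higher in KO progenitors. Gata2, Gfi1b, Runx1, Spi1 and Gfi1, chosen after their values were seen, were not called in KO mice.

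**Figure D4:**
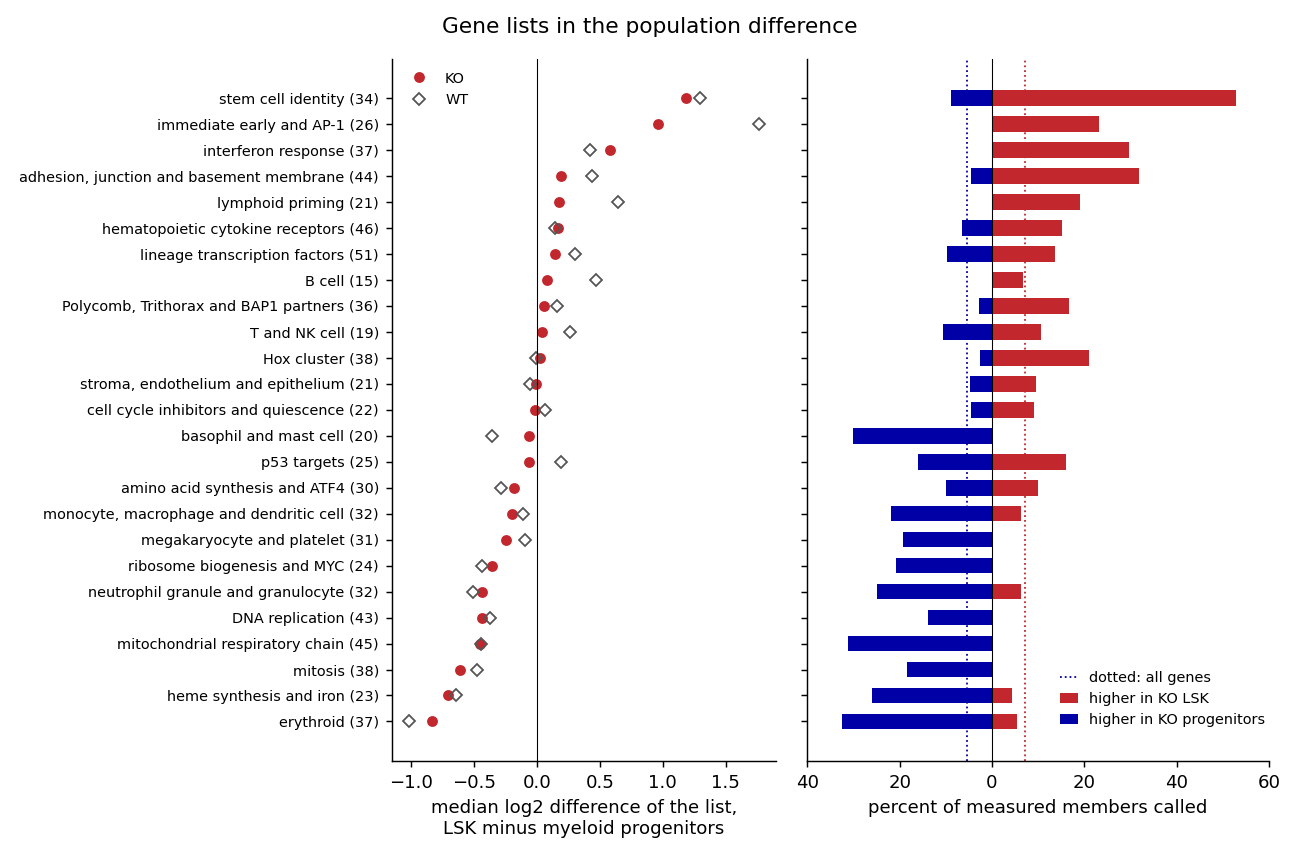
Left, the median log2 difference between LSK cells and myeloid progenitors of each gene list in KO mice (red points) and WT mice (open diamonds), with the number of measured members in brackets. Right, the percent of measured members called higher in KO LSK cells (red) or KO progenitors (blue), with the share of all genes dotted at 7.26% and 5.49%; the KO medians run from 1.19 for stem cell identity to -0.83 for erythroid genes, and without mouse 2 or 8 the immediate early and AP-1 median (1.18 and 1.22) is above that of stem cell identity (1 and 1.2).

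Genes of cell division were higher in KO progenitors or not called. DNA replication gave 6 of 43 members higher in progenitors and 0 in LSK cells (median -0.44), and mitosis 7 of 38 and 0 (median -0.61). Ccnb2, a mitotic cyclin, was at 7.04 and 7.39 in LSK mice and 8.75 and 8.58 in progenitor mice (-1.45 ± 0.19, adjusted p = 0.000923). Top2a, which untangles chromosomes, was at 9.97 and 10.86 against 11.69 and 11.55 (-1.21 ± 0.27, adjusted p = 0.0158), and lost its call without mouse 2, 7 or 8. Smc2 was at 10.01 and 11.16 against 11.99 and 11.63, and Mki67, the proliferation marker, at 10.76 and 11.75 against 12.01 and 12.21, the latter not called (adjusted p = 0.114). The Smc2 call was lost without mouse 2, 5, 6, 7 or 8. In these genes mouse 4 lay nearer the progenitors than mouse 2. The mean of the mitosis list was 9.49 in mouse 2, 10.19 in mouse 4, 10.49 in mouse 7 and 10.51 in mouse 8. Without mouse 4 the mitosis counts were 19 higher in progenitors and 1 in LSK cells with a median of -1.01, and without mouse 2 they were 1 and 0 with -0.32. Without mouse 7 or 8 they were 2 and 0. The replication counts were 2 without mouse 2, 10 without mouse 4, 1 without mouse 7 and 0 without mouse 8.

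Cell cycle inhibitors and quiescence genes gave 2 of 22 members higher in KO LSK cells and 1 higher in progenitors, near the shares of 7.26% and 5.49% over all genes. Without mouse 4 the counts were 1 and 4, and without mouse 2, 5, 6 or 7 they were 1 and 1. Cdkn1c, the inhibitor p57 that holds stem cells at rest, was at 10.80 and 10.79 in LSK mice and 8.69 and 8.48 in progenitor mice (2.21 ± 0.22, adjusted p = 0.000275), and its WT difference was 2.27. No single mouse left out ended its call. Gadd45a, a growth arrest gene, had a difference of -1.36 ± 0.25 in KO and -1.16 in WT mice, both called. Btg2 was at 9.32 and 9.72 against 6.36 and 7.87 (2.40 ± 0.56, adjusted p = 0.0416). It lost its call without mouse 2, 4, 5, 6 or 7, and its second probe differed by 0.19.

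Of 45 subunits of the mitochondrial respiratory chain 14 were higher in KO progenitors and 0 in LSK cells (median -0.45), and 12 and 0 in WT mice (median -0.44). Ndufb5, a subunit of complex I, was at 8.24 and 8.44 in LSK mice and 9.75 and 9.69 in progenitor mice (-1.38 ± 0.20, adjusted p = 0.00159). Ndufa5 was at 11.37 and 11.45 against 12.53 and 13.01 (-1.37 ± 0.20, adjusted p = 0.00205), and Sdhd, of complex II, at 11.22 and 12.08 against 13.18 and 13.16 (-1.52 ± 0.26, adjusted p = 0.00435). All 3 kept their call whichever mouse was left out, but the list count was 8, 4 and 6 without mouse 2, 7 and 8. Ribosome biogenesis gave 5 of 24 members higher in progenitors (median -0.36), with 1, 3, 0 and 0 without mouse 2, 4, 7 and 8. Among these 5, Nip7 differed by -1.22, but its second probe was called the other way (0.87, adjusted p = 0.0255). Nip7 and Dkc1 lost their call with all probes of a gene averaged. Amino acid synthesis and ATF4 genes gave 3 of 30 in each direction, against shares of 7.26% and 5.49% over all genes. Cth, Aldh18a1 and Psph were higher in progenitors, and Trib3, Vldlr and Ddit4 were higher in LSK cells. Aldh18a1 and Vldlr lost their call without mouse 8 and Ddit4 without mouse 2 or 7. Trib3, a pseudokinase induced by stress, was at 11.19 and 11.30 against 9.14 and 9.63 (1.85 ± 0.27, adjusted p = 0.00184). Without mouse 4, 9 were higher in progenitors and 4 in LSK cells, and without mouse 8 it was 1 and 2.

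Interferon response genes were higher in KO LSK cells in 11 of 37 measured members and in progenitors in 0, with a median of 0.58; in WT mice it was 10 and 0.42. Iigp1, an interferon-induced GTPase, was at 10.29 and 9.28 in LSK mice and 7.37 and 7.59 in progenitor mice (2.31 ± 0.39, adjusted p = 0.00637). Gbp2, another such GTPase, was at 10.67 and 10.16 against 8.20 and 8.25 (2.19 ± 0.25, adjusted p = 0.000481). Oas2, a sensor of viral RNA, differed by 2.15 ± 0.40, a call lost without mouse 7 or 8, and Ifitm3 by 1.61 ± 0.34, lost without mouse 2, 7 or 8. Mouse 2 was above mouse 4 in these 4 genes. Isg15 was at 7.34 and 7.12 against 6.92 and 6.79 and was not called. The count was 7, 6 and 3 without mouse 2, 7 and 8.

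Immediate early and AP-1 genes had a median of 0.96 in KO and 1.76 in WT mice, but large spreads between mice. Of 26 members 6 were called in KO, all higher in LSK cells, and 13 in WT. Nr4a1, a nuclear receptor induced by stimulation, was at 11.64 and 11.97 in LSK mice and 7.95 and 8.74 in progenitor mice (3.46 ± 0.74, adjusted p = 0.0388). Fos was at 13.24 and 14.07 against 9.91 and 11.77 and did not pass (2.82 ± 0.83, adjusted p = 0.107). Progenitor mice 7 and 8 were more than 1 unit apart in Fos and in Egr1 (11.13 and 13.04). Ier3 differed by 1.91 ± 0.32 and stayed called with any mouse left out, whereas Nr4a1 lost it without mouse 2, 4, 5, 6, 7 or 8. The count went from 1 without mouse 2 or 7 to 11 without mouse 3, and was 10, 3, 2 and 2 without mouse 1, 4, 5 and 6. TGACTCA, the AP-1 motif, was in 4.91% of promoters of genes higher in LSK cells, 4.01% of those higher in progenitors and 4.51% of all. The part of handling of the cells in these genes was not tested.

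Of 25 p53 targets 4 were higher in each KO population, and in WT mice 6 were higher in LSK cells and 0 in progenitors. Zmat3, an RNA-binding p53 target, was at 8.64 and 9.61 in LSK mice and 10.78 and 10.91 in progenitor mice (-1.72 ± 0.29, adjusted p = 0.00381). Phlda3 was at 6.86 and 6.68 against 7.65 and 7.80 (-0.96 ± 0.16, adjusted p = 0.00337). WT levels of Zmat3 were 7.67 to 8.18, below all KO mice, and the WT differences of -0.35 and 0.03 were not called. The genotypes were not shown to differ (adjusted p = 0.434 and 0.194). Cdkn1a, the inhibitor p21, was at 11.68 and 11.06 against 10.86 and 10.98 and was not called. Without mouse 2 or 7 the counts were 0 higher in LSK cells and 2 in progenitors, without mouse 8 they were 2 and 2, and without mouse 5 or 6 they were 2 and 3. Without mouse 1 or 3 they were 4 and 2.

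Adhesion, junction and basement membrane genes were higher in KO LSK cells in 14 of 44 measured members and in progenitors in 2, against 17 and 3 in WT mice. Col4a2, a chain of basement membrane collagen, was at 13.17 and 12.88 in LSK mice and 9.90 and 10.29 in progenitor mice (2.93 ± 0.22, adjusted p = 0.00014). Its partner chain Col4a1, chosen after its values were seen, differed by 2.88 ± 0.27. Epcam, an epithelial adhesion molecule, was at 10.92 and 10.27 against 6.86 and 8.02 (3.16 ± 0.38, adjusted p = 0.00156), and its second probe was called at 1.08. Lsr, of tricellular junctions, was at 11.78 and 11.33 against 8.25 and 8.79 (3.03 ± 0.26, adjusted p = 0.000171), while its second probe differed by -0.36 (adjusted p = 0.0616). The LSK mice lay more than 2 units above the progenitor mice in Col4a2, Epcam and Lsr. The 2 members higher in progenitors, Cldn13 and Itga4, became 1 or 0 without any single mouse. Of 21 markers of stroma, endothelium and epithelium 2, Epcam and Krt8, were higher in LSK cells, with Krt8 dim in the progenitors. Another 1, Col1a1, was higher in progenitors, a call lost without mouse 2 or 7. These counts were near the shares of 7.26% and 5.49% over all genes. The mean of that list was 7.54 and 7.64 in LSK mice and 7.50 and 7.43 in progenitor mice.

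Polycomb, Trithorax and BAP1 partner genes gave 6 of 36 members higher in KO LSK cells and 1 in progenitors, against 5 and 0 in WT mice. Cbx6 and Cbx7, which read the Polycomb mark on histone H3, differed by 1.55 ± 0.27 and 1.48 ± 0.29, and Cbx7 lost its call without mouse 2 or 7. Ezh1, the Polycomb methyltransferase of resting cells, was at 11.44 and 11.29 in LSK mice and 10.27 and 10.29 in progenitor mice (1.08 ± 0.20, adjusted p = 0.00561). Ezh2, its counterpart of dividing cells, was at 11.39 and 11.57 against 12.23 and 12.33 (-0.80 ± 0.22, adjusted p = 0.0363). The groups did not overlap in either gene. Ezh1 lost its call without mouse 7, and Ezh2, chosen after its values were seen, without mouse 1, 2, 3, 7 or 8. A second Ezh1 probe differed by 0.68 (adjusted p = 0.0567). Kdm6b, a demethylase of that mark, was at 7.51 and 8.55 against 6.77 and 6.86, so that mouse 4 was the high one, and its call was lost without mouse 5, 6, 7 or 8, with all arrays or the KO arrays alone in the fit, and with array medians. The count higher in LSK cells was 4, 1 and 3 without mouse 2, 7 and 8.

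The difference between the KO and the WT population difference was called in 11 of 17741 genes (0.062%), 3 of them (0.0169%) higher in KO and 8 (0.0451%) lower, while 1126 (6.35%) had an unadjusted p under 0.05. Its median SE was 0.261, against 0.184 for a KO difference, so the test is less fine. The count was 36 to 117 without mouse 1, 2, 3, 4, 5 or 7. Cldn5, a claudin of tight junctions, was at 11.40 and 11.17 in KO LSK mice and 7.41 and 7.76 in KO progenitor mice, a difference of 3.70 ± 0.24 (adjusted p = 0.000114). In WT mice it was at 7.90 and 7.47 against 6.87 and 7.33, a difference of 0.58 that was not called, and the differences differed by 3.12 (adjusted p = 0.0124). Fastk, a kinase-like protein of mitochondrial RNA, was at 10.44 and 10.45 in KO LSK mice and 8.00 and 8.05 in KO progenitor mice, against 8.45 and 8.29 and 8.45 and 9 in WT mice. The differences differed by 2.78 (adjusted p = 0.0137). In both genes the KO LSK mice alone stood high. Both kept the call whichever mouse was left out.

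In other genes a difference that WT mice had was small or not called in KO mice. Slc35d3 and Abcg3 were at 9.22 and 9.07 and at 7.97 and 8.13 in WT LSK mice, and at 6.24 to 7.27 in all KO mice. Paqr5, a membrane progesterone receptor, was at 9.16 and 9.39 in WT LSK mice and 7.05 and 7.27 in KO LSK mice, so that its difference was 2.77 in WT and 1.03 in KO mice, both called. It was dim in KO progenitors. In these 3 genes both KO LSK mice were below both WT LSK mice. Pim1, a kinase induced by cytokines, was at 13.86 and 13.78 in KO LSK mice and 13.50 and 13.41 in KO progenitor mice, against 14.03 and 13.99 and 12.19 and 12.02 in WT mice. Arhgap45 was at 14.06 and 13.57 against 13.15 and 13.48 in KO mice, and at 13.61 and 13.50 against 11 and 11.01 in WT mice. In Pim1 and Arhgap45 the WT progenitors alone stood low.

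Fgf13 was the 1 gene of the 8 with a called KO difference of the opposite sign to WT. It was dim in KO LSK mice, at 6.35 and 6.58, and at 7.69 and 7.91 in KO progenitor mice (-1.34 ± 0.17, adjusted p = 0.000782), with a WT difference of 0.44 that was not called. The remaining 3, Afm, Asb4 and C430049B03Rik, were at most 7.06 in any mouse and fall outside the naming rule. Of the 11 genes Cldn5 alone was on a gene list. The difference between genotypes lost its call without mouse 6 in Slc35d3, Arhgap45, Fgf13, Paqr5, Pim1 and Abcg3. It also lost it without mouse 8 in Slc35d3, Arhgap45, Paqr5 and Pim1, without mouse 1 in Arhgap45 and Pim1, without mouse 5 in Arhgap45 and without mouse 7 in Pim1. Arhgap45 lost it too with all arrays in the fit, and Arhgap45 and Pim1 with all probes of a gene averaged. Arhgap45 and Fgf13 lost it with array medians and Pim1 with cyclic loess. Arhgap45 and Pim1 lost it without both WT mice that had a Kdm5d signal. All 11 lost the call with neither a trend nor robust variances in the fit.

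**Figure D5:**
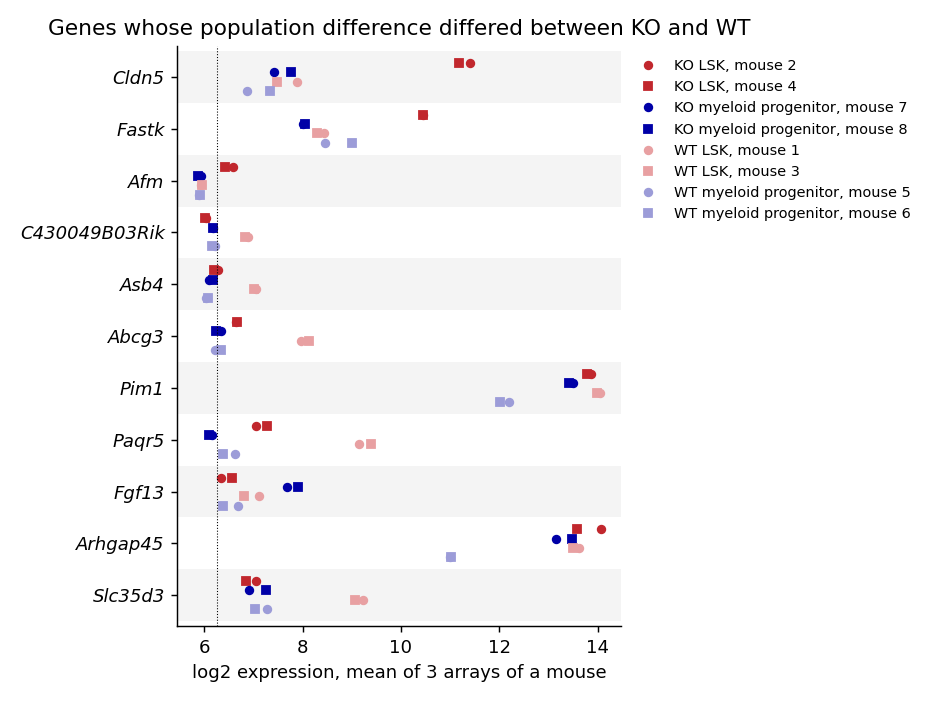
Log2 expression of the 11 genes whose population difference differed between KO and WT, 1 point a mouse (mean of 3 arrays), with KO mice in full and WT mice in pale colours, LSK red and progenitors blue; the dotted line is the lower quartile of all mouse means. KO LSK mice stand alone to the right in Cldn5 and Fastk, and WT LSK mice in Slc35d3, Paqr5 and Abcg3.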

How the data were processed

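The deposited values are log2 expression values from one-colour Cy5 arrays, processed by the authors with limma, per the submitters' processing notes (no version). The log2 scale and normalization were read from the values (5.66 to 15.93; sorted arrays differ by at most 0.0451 at a rank, as after quantile normalization). How arrays were scanned, background-corrected and filtered is not stated. Arrays have no count depth; their number limits precision, and whether mice were littermates is not stated.

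Of 22439 probes, 20375 were named through the platform annotation and a RefSeq table, and the brightest probe stood for each of 17741 genes. Of 323 called genes with several probes, 88 had another probe called in the same direction. In 81 another probe had the opposite sign, 3 past the threshold. The 3 arrays of a mouse were averaged and the 8 mouse means fitted with limma 3.58.1 in R 4.3.3 (4 groups, trend and robust eBayes, 4 residual and a median of 6.91 prior degrees of freedom), two-sided, adjusted over all probes, threshold 0.05. Tested on simulated data with 1000 changed probes, the KO comparison recovered 86.5% of those changed by 1 and 5.22% of calls were false; with 200 changed it was 75% and 8.67%. Simulated probes varied independently and with the same spread in all 4 groups. In the data mice 2 and 4 differed by more than 1 log2 unit in 290 genes and mice 7 and 8 in 86. The simulated rates therefore need not hold for these mice. The other contrasts were not simulated.

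The comparison, the 27 gene lists and the naming rule were chosen with earlier results of these data known. Named were Bap1, sort markers, the 12 highest and 12 lowest called genes whose mice did not overlap and whose brighter population was above the median probe mean of 7.20, up to 5 called members a list (up to 2 by size if none was called), and up to 10 genes a direction differing from WT. Lists were described, not tested. Array numbers within a mouse name arrays and pair no mice. Alternatives were a fit of all 24 arrays with mice as random blocks (also with the array number as a replicate block), the contrast's groups alone, no trend, dim-probe filters, centring, cyclic loess, array medians, all probes averaged, a threshold of 0.01, and leaving out each mouse or both mice with a Kdm5d signal. Leaving a mouse out leaves 1 in its group, assumed to vary like the others.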

Additional observations from a re-analysis of the deposited data

Results flagged for a closer look

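In 11 genes the difference between LSK cells and myeloid progenitors was not the same in KO and WT mice, by the interaction contrast of the limma fit. Given as the KO minus the WT log2 difference, it was 3.12 in Cldn5, 2.78 in Fastk and 0.57 in Afm. It was -2.12 in Slc35d3, -2.05 in Arhgap45, -1.78 in Fgf13, -1.74 in Paqr5, -1.55 in Pim1 and -1.40 in Abcg3, and -0.88 in Asb4 and -0.82 in C430049B03Rik. Afm was at 6.59 and 6.43 in KO LSK mice and 5.87 to 5.95 in the other 6 mice. Asb4 was at 7.06 and 7.01 in WT LSK mice and 6.04 to 6.27 in the other 6, and C430049B03Rik at 6.89 and 6.83 in WT LSK mice and 6.02 to 6.23 in the others. These 3 were dim in the 6 mice outside their high group and were chosen after their values were seen. Each lost its call without mouse 6 or 8, Afm and Asb4 also without mouse 5 and Afm without mouse 1.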

How the results depend on the processing

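All 122 called genes named kept their sign under every alternative that gave a value; 97 kept their call outside leave-one-out and the 0.01 threshold, and 65 whichever mouse was left out. The KO count of 2262 went from 936 to 2687 when single mice were left out, the WT count of 2403 from 1077 (without mouse 1) to 2749, and the count of 11 genes differing between genotypes from 10 to 117. A fit of all arrays, with mice as random blocks, gave 4628, 4675 and 454, and with the array number as a replicate block 4514, 4543 and 402; the cause was not tested, but both use arrays of the same mouse as samples. A threshold of 0.01 left 942, 1126 and 0. Leaving out WT mice 1 and 5, which had a Kdm5d signal, gave a WT count of 617 and a difference count of 49. The difference count was 0 without trend and robust variances and 31 among probes above the 50th percentile. The contrast's groups alone could not be fitted for it. Cyclic loess moved the share of KO calls higher in LSK cells from 56.9% to 65.5%. Differences that were not called turned sign in Cd4 (0.03 with array medians, and from -1.04 to 0.04 over the mice left out), Xist (0.04 with cyclic loess), Kit (from -0.28 to 0.02 over the mice left out) and Slc35d3 (from -0.31 to 0.04). Levels under 6.5 limit differences of dim genes.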

Other observations

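Some genes near the threshold of the difference between genotypes were chosen after their values were seen. Olfm1 was at 7.93 and 7.86 in KO LSK mice and 9.85 and 9.76 in KO progenitor mice, and at 7.30 to 7.88 in the WT mice; the difference between genotypes was -1.62 (adjusted p = 0.0889). Scin, an actin-severing protein, was at 6.5 and 6.62 against 7.75 and 7.44 in KO mice and at 7.46 and 7.60 against 10.09 and 10.68 in WT mice (1.82, adjusted p = 0.0914). Lgals1, galectin-1, was at 13.86 to 14.33 in all KO mice, while WT LSK mice were at 12.54 and 13 and WT progenitor mice at 14.50 and 14.49 (1.69, adjusted p = 0.1). Pdzph1 and Gzmb, taken by unadjusted p, differed between genotypes by 1.83 (adjusted p = 0.07) and 1.79 (adjusted p = 0.0784), each highest in WT progenitors. Tmprss4, a membrane protease, was at 8.44 in both KO LSK mice and at 6.80 to 7.21 in the other 6 mice (1.21, adjusted p = 0.0889).

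Cish and Socs3, feedback inhibitors of cytokine signalling, were chosen after their values were seen. Cish was at 13.43 and 13.29 in KO LSK mice and 11.04 and 11.94 in KO progenitor mice (1.87 ± 0.32, SE, limma adjusted p = 0.0049), called with any mouse left out. Socs3 was at 11.60 and 11.19 against 9.80 and 9.49 (1.75 ± 0.32, adjusted p = 0.00577), lost without mouse 2. Podxl, a sialomucin, was at 11.11 and 12.10 against 12.03 and 12.83 in KO mice and was not called. WT LSK mice were above WT progenitor mice, by 1.56 (adjusted p = 0.0383). The difference between genotypes was not called (adjusted p = 0.314).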
